A study of Oryctolagus cuniculus with 36 samples.

Results

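RNA of rabbit liver was read for 38 genes of blood formation, chosen by symbol from a list of 9 early regulators, 12 erythroid regulators and 17 late membrane and globin-support genes. Of these, 35 were found among the 23394 genes of the deposited count table: 8 early genes, 11 erythroid regulators and 16 late genes. LYL1, ZFPM1 and RHD were not matched by symbol and are not analysed here. The series concerns hereditary tyrosinemia type I (HT1), the inherited loss of fumarylacetoacetate hydrolase (FAH), and its repair by CRISPR/Cas9 in newborn rabbits. Sample titles give 3 groups, WT, FA and FK. The labels spell out none of the 3 abbreviations, give no genotype, agent, dose, time or age for any of them, and attach the same HT1 model description to all 36 libraries, WT included. All livers were trypsinized before total RNA was extracted with TRIzol. Each group has 3 numbered sets of 4 libraries. The 4 libraries of a set were summed, so n = 3 sets per group, and no label ties a set to its own animal. A p-value here is therefore read against how far sets of a label differ, which could be technical spread alone.

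Red cells arise from stem and progenitor cells through a sequence of regulators. TAL1, LMO2, RUNX1, GATA2, MYB and KIT act in progenitors. GATA1 and KLF1 then turn on the erythroid program, with erythropoietin acting through its receptor EPOR. Maturing cells make heme and globin and build a membrane skeleton of spectrin, ankyrin and protein 4.1 under the anion exchanger band 3, which SLC4A1 encodes. The liver is the main site of this process before birth, and the bone marrow takes it over afterwards.

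Totals ran from 53.2 to 78.6 M counts per set and from 11.7 to 22.5 M per library. Levels are counts per M counts (CPM) after scaling between sets. FAH stood at 237, 271 and 217.5 CPM in WT sets 1, 2 and 3, at 25.7, 24.7 and 19.6 in FA and at 16.4, 11.8 and 14.6 in FK. FK set 3 was unlike the other FK sets across the transcriptome: 68.7% of the 14939 genes tested had an FK set 3 level inside the range of the 6 WT and FA sets, against 40.9% for FK set 1 and 38.2% for FK set 2. FK results are therefore given with and without FK set 3. FK set 3 was singled out after the data were seen, and it is the set where these genes were not raised. Adjusted p-values without it are therefore descriptions and give no independent support. Of the 35 genes, 34 were matched in RefSeq's genes for assembly mOryCun1.1, and 9 overlap another gene there (GATA2, RUNX1, CD34, XPO7, ANK1, EPB41, KEL, TSPAN33 and SLC25A37). Their counts are uncertain because the labels do not say whether the RNA strand was kept.

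**Figure D1:**
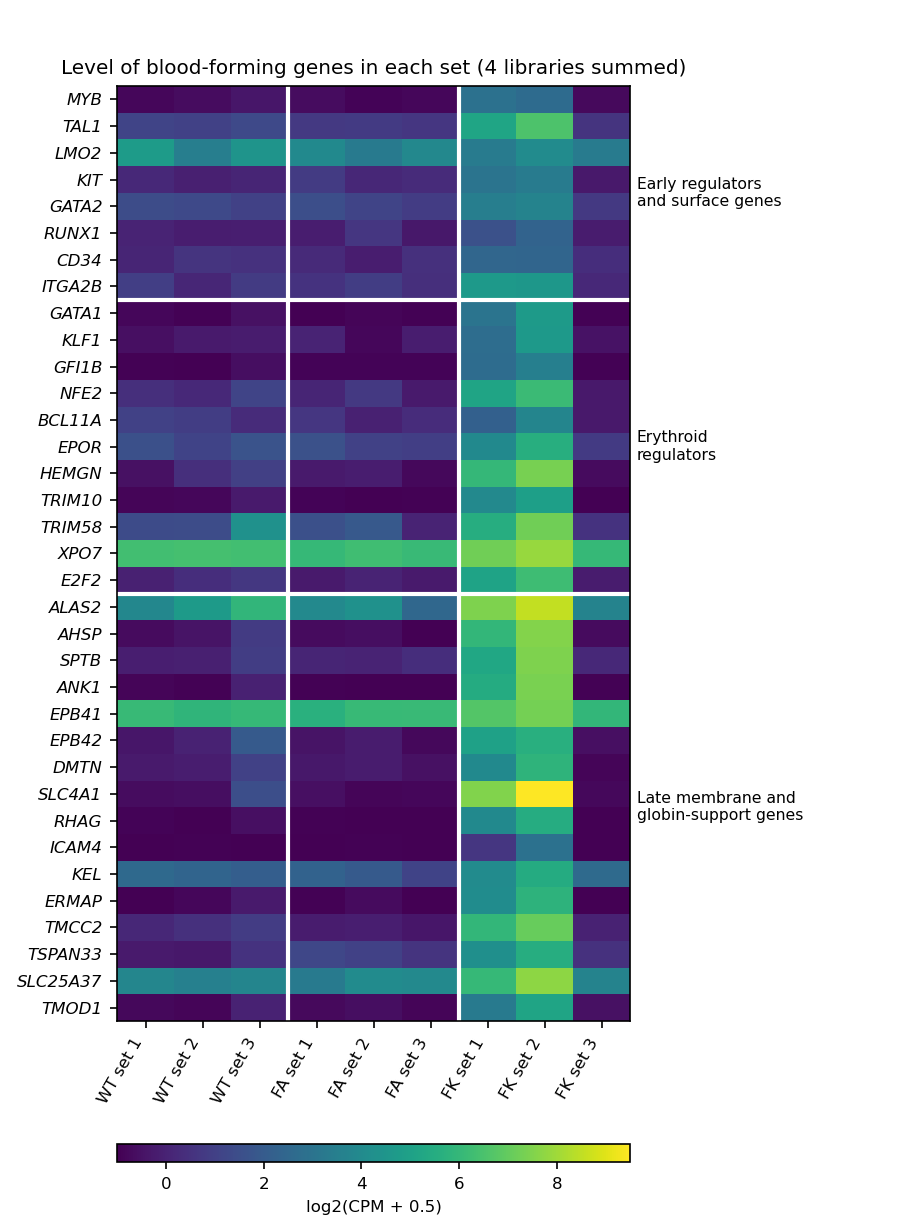
Level of each of the 35 genes (rows, grouped by role) in each of the 9 sets (columns), shown as log2 of CPM plus 0.5. FK sets 1 and 2 are the bright columns in all 3 roles, with LMO2 as the exception, while FK set 3 looks like the WT and FA sets.

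The comparison of FK with WT asks how livers labelled FK differ from those labelled WT in blood-forming genes. FK sets 1 and 2 held high levels of early, erythroid and late genes, and FK set 3 did not. Summed over the 35 genes, the level was 1338 CPM in FK set 1, 3476 in FK set 2 and 179 in FK set 3, against 224, 210.3 and 291 in WT and 178, 209.9 and 185 in FA. FK set 1 lay above all 6 WT and FA sets for 34 of 35 genes, against 30.4% of all genes tested. FK set 2 did so for 34 of 35, against 31.4%. FK set 3 did so for 1 of 35, KEL, against 16.3%, and lay below all 6 for 7 of 35, against 15.0%. In bulk RNA, more cells of a type and more RNA per cell cannot be told apart.

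Of the 35 genes, 33 passed the filter on low counts, and GFI1B and ICAM4 did not. With all 9 sets, the quasi-likelihood test of edgeR, adjusted by Benjamini-Hochberg over 14939 genes, called 1 of the 33 higher in FK than in WT, against 3.04% of all genes, and 0 of 33 lower, against 1.73%. The gene called was TSPAN33. At an unadjusted p under 0.05 there were 31 of 33, and 4016 among the 14939. The median log2 difference was 2.97 over the early genes, 5.08 over the erythroid regulators and 6.12 over the late genes, against 0.05 over all genes. Adjusted p ran from 0.0555 to 0.251, from 0.0543 to 0.225 and from 0.0459 to 0.167 in the 3 roles. Without FK set 3, which leaves 2 FK sets, 34 of 35 genes were called higher, 7 of 8 early, 11 of 11 erythroid and 16 of 16 late, against 18.7% of all genes higher and 16.2% lower. GFI1B and ICAM4 passed the filter in that fit only through FK sets 1 and 2, where they were high. They were not alone in needing the high FK sets. With only FA and WT in the fit, 24 of the 35 genes passed. Genes low in WT and FA, such as RHAG with 2, 0 and 11 WT counts, needed FK sets 1 and 2 to be tested. The counts and medians given here include such genes. The medians without FK set 3 were 3.49, 5.67 and 6.70. Without FK set 2 they were 2.34, 3.73 and 4.48, and without WT set 3 they were 2.93, 5.54 and 6.91. DESeq2 on all 9 sets called 30 of 35 higher, against 10.7%, and left out LMO2, BCL11A, TRIM58, XPO7 and EPB41.

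**Figure D2:**
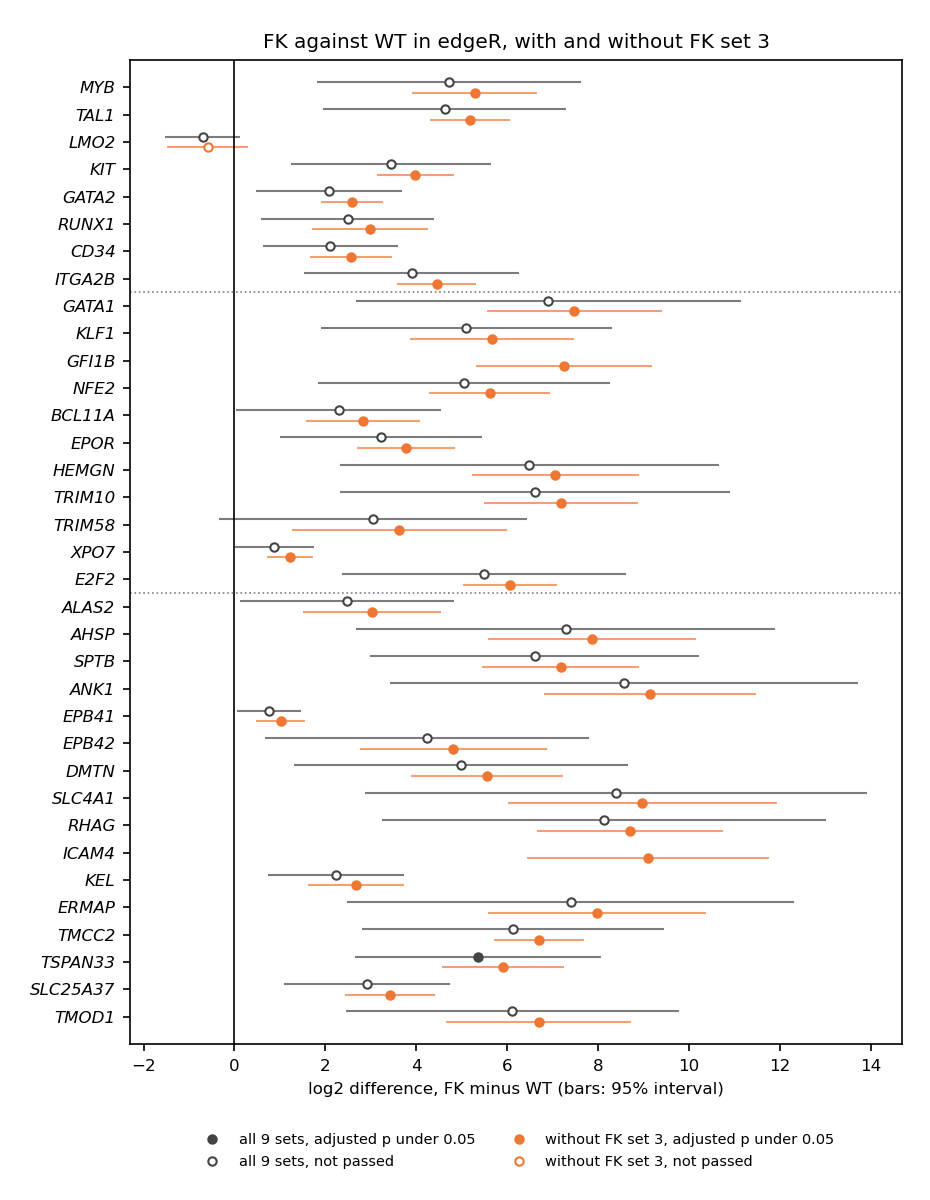
Fitted log2 difference of FK minus WT for each gene with its 95% interval, with all 9 sets and without FK set 3. Filled points passed an adjusted p under 0.05. Leaving out FK set 3 narrows the intervals except that of LMO2, which is the only gene whose difference stays below 0 in both fits.

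Among the early genes, TAL1, a transcription factor needed to start blood formation, was high in FK sets 1 and 2 alone. TAL1 stood at 1.72, 1.53 and 2.02 CPM in WT sets 1, 2 and 3, at 1.19, 1.20 and 1.09 in FA and at 35.2, 94.1 and 0.980 in FK. FK sets 1 and 2 were far above every other set, and FK set 3 was the lowest of all 9, so FK and WT overlapped. The log2 difference was 4.62 (SE 1.18; edgeR adjusted p = 0.0555), and 5.18 (adjusted p = 4.86e-05) without FK set 3. KIT, the receptor for stem cell factor, stood at 0.655, 0.435 and 0.551 CPM in WT, at 1.28, 0.616 and 0.736 in FA and at 7.64, 9.90 and 0.321 in FK. Its pattern was the same, with FK set 3 lowest (log2 difference 3.44, SE 0.97, edgeR adjusted p = 0.0696; 3.98 and 0.000131 without FK set 3). ITGA2B encodes the platelet integrin subunit CD41, which also marks early blood progenitors. ITGA2B stood at 1.42, 0.580 and 1.25 CPM in WT, at 0.940, 1.39 and 0.837 in FA and at 24.6, 23.3 and 0.659 in FK. FK set 3 lay within the WT and FA range here (log2 difference 3.90, SE 1.04, edgeR adjusted p = 0.0621; 4.45 and 8.28e-05 without FK set 3).

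LMO2, the adaptor that joins TAL1 to GATA factors and is also made by endothelium, was the exception in the whole list. LMO2 stood at 26.5, 10.6 and 21.2 CPM in WT, at 15.3, 9.41 and 14.3 in FA and at 9.89, 16.2 and 9.83 in FK. All 3 groups overlapped, and no FK set exceeded the WT range (log2 difference -0.70, SE 0.36, 95% interval -1.52 to 0.13, edgeR adjusted p = 0.251; -0.59 and 0.28 without FK set 3). MYB, a transcription factor of dividing progenitors, had at most 0.275 CPM in WT and FA, 6.98 and 5.90 in FK sets 1 and 2 and 0.101 in FK set 3. GATA2, RUNX1, which is needed for blood stem cells to form, and the progenitor and vascular surface protein CD34 had 2.56 to 12.6 CPM in FK sets 1 and 2, and at most 2.40 in any WT or FA set. Over the 8 early genes the median ratio to the WT mean was 10.04 in FK set 1, 14.3 in FK set 2 and 0.609 in FK set 3.

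Apart from XPO7 and TRIM58, the erythroid regulators had at most 2.72 CPM in WT, FA and FK set 3. GATA1, the zinc finger factor that erythroid cells depend on, had 4, 1 and 12 counts in WT sets 1, 2 and 3, 0, 3 and 1 in FA, and 476, 1715 and 1 in FK. In CPM, GATA1 stood at 0.0639, 0.0161 and 0.194 in WT, at 0, 0.0486 and 0.0167 in FA and at 7.61, 26.0 and 0.0169 in FK. FK set 3 thus held 1 GATA1 count where FK set 2 held 1715. The log2 difference from WT was 6.91 (SE 1.87; edgeR adjusted p = 0.0635), and 7.48 (adjusted p = 0.000292) without FK set 3. KLF1, which switches on adult beta-globin, stood at 0.176, 0.354 and 0.373 CPM in WT, at 0.519, 0.0648 and 0.385 in FA and at 6.22, 24.9 and 0.22 in FK. KLF1 was 4.00-fold higher in FK set 2 than in FK set 1, the widest such ratio among the erythroid regulators (log2 difference from WT 5.11, SE 1.41, edgeR adjusted p = 0.0658; 5.67 and 0.000828 without FK set 3).

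EPOR, the erythropoietin receptor, stood at 2.46, 1.64 and 2.72 CPM in WT, at 2.50, 1.54 and 1.41 in FA and at 15.5, 47.4 and 1.23 in FK. FK set 3 was again the lowest of the 9 (log2 difference 3.23, SE 0.98, edgeR adjusted p = 0.082; 3.77 and 0.000456 without FK set 3). HEMGN, a nuclear protein of erythroid progenitors, stood at 0.192, 0.821 and 1.49 CPM in WT, at 0.337, 0.389 and 0.0837 in FA and at 62.6, 163 and 0.118 in FK. Its FK set 3 level lay among the FA levels and below all WT sets (log2 difference 6.49, SE 1.84, edgeR adjusted p = 0.0706; 7.06 and 0.000302 without FK set 3). TRIM58 encodes a ubiquitin ligase of late erythroblasts. TRIM58 stood at 2.14, 2.24 and 19.1 CPM in WT, at 2.46, 3.37 and 0.519 in FA and at 46.2, 148 and 0.946 in FK. WT set 3 stood above the other WT sets for this gene (log2 difference 3.05, SE 1.49, edgeR adjusted p = 0.225; 3.63 and 0.0258 without FK set 3).

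XPO7, a nuclear transport receptor that maturing erythroblasts use but many tissues also make, was well expressed everywhere. XPO7 stood at 80.0, 83.5 and 79.3 CPM in WT, at 64.6, 76.4 and 67.9 in FA and at 148, 234 and 65.5 in FK. Its ratio to the WT mean was the smallest of the erythroid regulators, 1.82 in FK set 1 and 2.89 in FK set 2 (log2 difference 0.88, SE 0.38, edgeR adjusted p = 0.182; 1.22 and 0.00345 without FK set 3). The repressor GFI1B, the globin regulator NFE2, the cell cycle factor E2F2 and the ubiquitin ligase TRIM10 had 5.98 to 74.2 CPM in FK sets 1 and 2, and at most 1.70 in WT and FA. BCL11A, the repressor of fetal globin genes, had 0.470 to 1.55 CPM in WT and FA, 4.12 and 13.4 in FK sets 1 and 2 and 0.321 in FK set 3. Over the 11 erythroid regulators the median ratio to the WT mean was 32.6 in FK set 1, 82.6 in FK set 2 and 0.302 in FK set 3.

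Summed over the 16 late genes, the level was 102 to 156 CPM in WT, 83.4 to 110 in FA and 857, 2461 and 95.3 in FK sets 1, 2 and 3. TSPAN33, a tetraspanin of erythroid precursors, rose in FK. TSPAN33 stood at 0.335, 0.306 and 0.940 CPM in WT, at 1.87, 1.54 and 0.987 in FA and at 18.3, 45.9 and 0.929 in FK. FK set 3 lay below WT set 3, so the groups overlapped although the test was passed (log2 difference 5.36, SE 1.19, edgeR adjusted p = 0.0459). The call was lost when any WT set, any FA set, FK set 1 or FK set 2 was left out (adjusted p 0.0724 to 0.17), and was kept without FK set 3 (log2 difference 5.91, adjusted p = 0.000167). SLC4A1, the band 3 anion exchanger, had 8, 10 and 148 counts in WT, 12, 3 and 4 in FA and 11439, 47673 and 5 in FK. In CPM, SLC4A1 stood at 0.128, 0.161 and 2.40 in WT, at 0.168, 0.0486 and 0.0669 in FA and at 183, 723 and 0.0845 in FK. FK set 2 was 807-fold and FK set 1 was 204-fold above the WT mean, and FK set 3 was below every WT set. Against the mean of WT sets 1 and 2 alone, an alternative added after the data were seen, these folds were 5007 and 1266, since 148 of the 166 WT counts came from WT set 3. SLC4A1 did not pass the test with all 9 sets (log2 difference 8.40, SE 2.44, edgeR adjusted p = 0.0739; 8.98 and 0.000984 without FK set 3).

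ALAS2 encodes the erythroid enzyme that starts heme synthesis. ALAS2 stood at 14.1, 26.0 and 60.1 CPM in WT, at 15, 19.4 and 5.19 in FA and at 179, 367 and 12.4 in FK. It was measurable in all sets, and FK set 3 was below every WT set (log2 difference 2.48, SE 1.04, edgeR adjusted p = 0.167; 3.02 and 0.00827 without FK set 3). EPB42, protein 4.2 of the red cell membrane, stood at 0.287, 0.515 and 3.47 CPM in WT, at 0.224, 0.373 and 0.0837 in FA and at 31.9, 49.0 and 0.169 in FK. WT set 3 again stood above the other WT sets (log2 difference 4.25, SE 1.57, edgeR adjusted p = 0.129; 4.82 and 0.00376 without FK set 3). EPB41, protein 4.1, which many cell types use, stood at 66.6, 57.2 and 65.0 CPM in WT, at 50.6, 67.3 and 68.9 in FA and at 101, 156 and 61.9 in FK. It had the smallest ratio of the late genes in both of these FK sets, 1.61 and 2.48 (log2 difference 0.76, SE 0.31, edgeR adjusted p = 0.164; 1.02 and 0.0105 without FK set 3).

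The rest of the membrane skeleton followed the same order of sets. SPTB (beta-spectrin), ANK1 (ankyrin), DMTN (dematin, which bundles actin) and TMOD1 (tropomodulin, which caps it) had 9.24 to 43.7 CPM in FK set 1, 34.8 to 178 in FK set 2 and 0.0169 to 0.642 in FK set 3. Their highest WT or FA level was 1.52 CPM. Among the genes with more than 3 WT counts, ANK1 had the largest ratio to the WT mean, 238 in FK set 1 and 913 in FK set 2. ANK1 had 3, 1 and 30 counts in the WT sets and 1 in FK set 3, so this ratio rests mostly on WT set 3. Among blood group carriers, RHAG and ERMAP had 15.3 to 55.4 CPM in FK sets 1 and 2, at most 0.356 in WT and FA, and 0 counts in FK set 3. ICAM4 had 67 and 465 counts in FK sets 1 and 2, 0 in FK set 3 and 1 over all WT sets. With the sets of a group pooled, the ratio of FK to WT was 528, with a 95% counting interval of 94.4 to 20899. That interval covers counting error only and leaves out the spread between FK sets, so it does not describe FK set 3. KEL, the Kell glycoprotein, alone of the 35 genes had all 3 FK sets above the 3 WT sets, against 13.9% of all genes. For FK set 3 this rests on scaling, since FK set 3 and WT set 1 both held 341 counts. Their libraries overlapped, at 4.93 to 6.77 CPM in FK set 3 and 4.88 to 6.09 in WT set 1. KEL stood at 5.45, 4.70 and 3.87 CPM in WT, at 4.39, 3.47 and 1.69 in FA and at 16.3, 44.1 and 5.76 in FK (log2 difference 2.24, SE 0.66, edgeR adjusted p = 0.0764; 2.68 and 0.00256 without FK set 3).

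AHSP, the chaperone of free alpha-globin, had at most 1.25 CPM in WT and FA, 60.7 and 188 in FK sets 1 and 2 and 0.118 in FK set 3. The mitochondrial iron carrier SLC25A37 had 9.55 to 16.3 CPM in WT and FA, 65.5 and 211 in FK sets 1 and 2 and 12.5 in FK set 3. TMCC2 had 0.268 to 1.31 CPM in WT and FA, 62.1 and 134 in FK sets 1 and 2 and 0.490 in FK set 3. For these 3 genes the edgeR adjusted p was 0.0678, 0.0657 and 0.0504. Over the 15 late genes with more than 3 WT counts, the median ratio to the WT mean was 44.0 in FK set 1, 144 in FK set 2 and 0.371 in FK set 3. Against the mean of WT sets 1 and 2 alone, over the 14 late genes with more than 3 counts there, these medians were 81.8, 168 and 0.682.

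**Figure D3:**
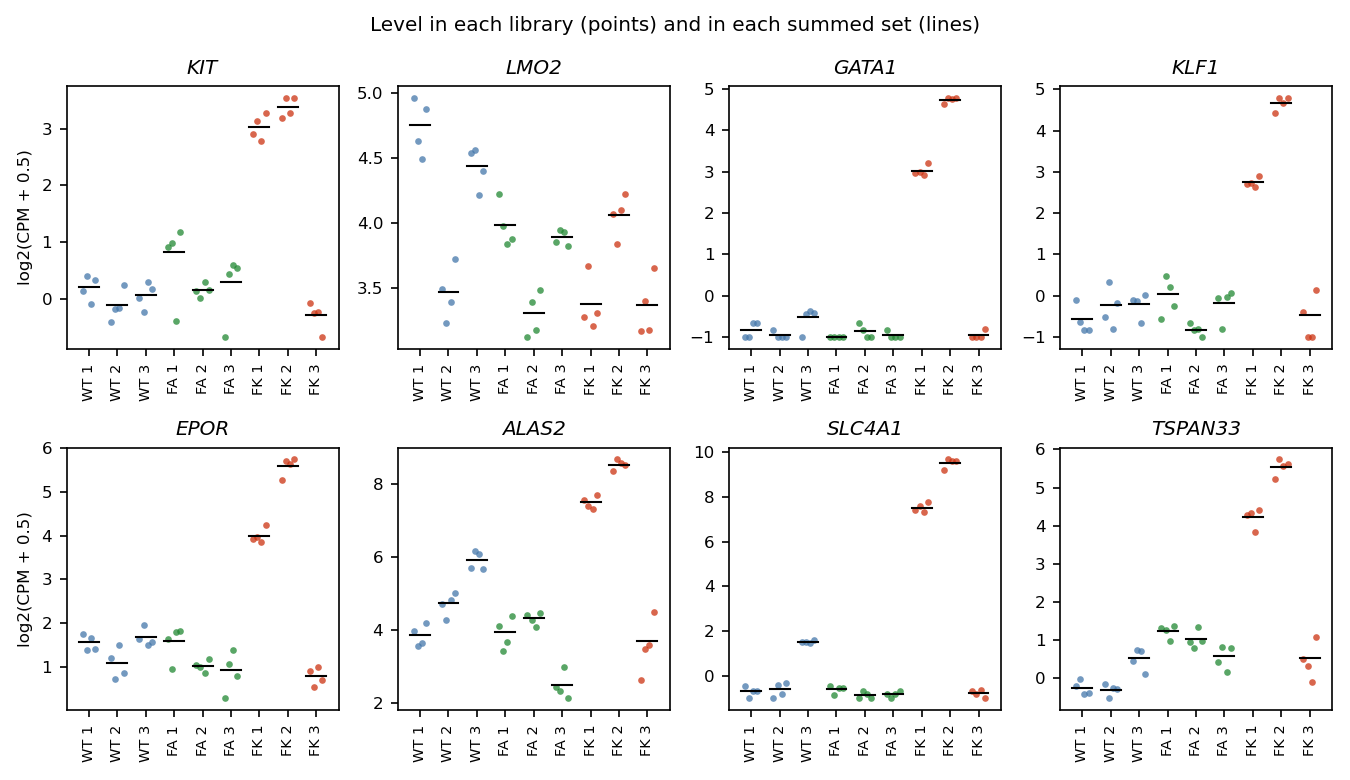
Level of 8 of the genes in each of the 36 libraries, as log2 of CPM plus 0.5, with 4 points per set and a line at the summed set. The step from WT, FA and FK set 3 to FK sets 1 and 2 is seen in all 8 genes except LMO2.

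Over the 108 pairs of a gene and a set with at least 50 counts in every library, the highest library was at a median 1.37 times the lowest. That ratio passed 2 for 1 pair, ALAS2 in FK set 3, whose libraries ranged over 5.66 to 21.9 CPM and overlapped those of WT set 1, at 11.3 to 17.7. GATA1 ranged over 7.09 to 8.79 CPM in the libraries of FK set 1, over 24.2 to 27.0 in FK set 2 and over 0 to 0.0665 in FK set 3. SLC4A1 ranged over 157 to 218 CPM, 577 to 811 and 0 to 0.143 in the same sets. For KIT the ranges were 6.38 to 9.12, 8.65 to 11.1 and 0.133 to 0.455 CPM, so FK sets 1 and 2 overlapped for KIT and not for GATA1 or SLC4A1.

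The step from FK set 1 to FK set 2 was not the same for the 3 roles. The ratio of FK set 2 to FK set 1 had a median of 1.24 over the 8 early genes, 2.60 over the 11 erythroid regulators and 3.16 over the 16 late genes. It passed 2 for 1 early gene (TAL1), 9 erythroid regulators and 14 late genes, against 8.28% of all genes tested. All 4 libraries of FK set 2 lay above all 4 of FK set 1 for 3 of 8, 11 of 11 and 15 of 16 genes, against 17.1% of all genes tested. MYB, CD34 and ITGA2B were lower in FK set 2 than in FK set 1, at ratios of 0.845, 0.964 and 0.949. The highest ratios were 6.59 for ICAM4, 4.77 for SPTB and 4.00 for KLF1. These are 2 sets of the same label, so the ratios are descriptions with no test.

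WT set 3 was the highest of the WT sets for the later roles. The ratio of WT set 3 to the mean of WT sets 1 and 2 had a median of 1.16 over the early genes, 2.28 over the erythroid regulators and 3.71 over the late genes. WT set 3 was the highest of the 3 WT sets for 2 of 8, 9 of 11 and 12 of 16 genes, against 34.3% of all genes. SLC4A1, at 16.6, had the largest such ratio of the late genes. WT set 3 held 2 genes with under 10 counts, where WT sets 1 and 2 held 11 and 9, the FA sets 9, 12 and 13, FK set 3 held 12 and the other FK sets 0.

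**Figure D4:**
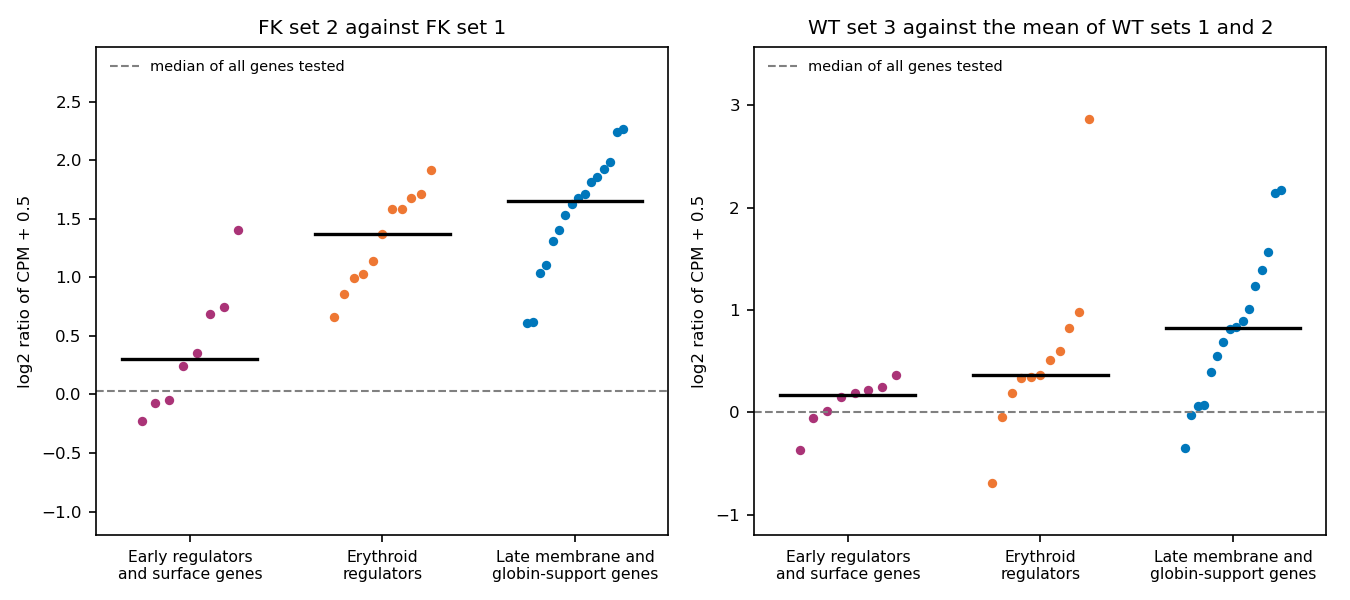
Log2 ratio of FK set 2 to FK set 1 (left) and of WT set 3 to the mean of WT sets 1 and 2 (right) for each gene, by role, on CPM plus 0.5. Points are ordered by value within a role, bars are role medians, and the dashed line is the median of all genes tested. In the left panel the role medians are 0.30, 1.37 and 1.65, against 0.03 for all genes.

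FA and WT were compared to ask whether livers labelled FA differ from WT in the same genes. None was called, and most FA levels lay somewhat below WT. edgeR with Benjamini-Hochberg adjustment called 0 of 33 genes with all 9 sets, against 0.167% of all genes, and 0 of 35 without FK set 3, against 1.6%. DESeq2 called 0 of 35, against 2.09%. At an unadjusted p under 0.05 edgeR had 0 of 33 with all 9 sets, against 1518 of 14939 genes, and 8 of 35 without FK set 3, against 2760 of 15453. The FA mean was below the WT mean for 29 of 35 genes. The median log2 difference of FA from WT was -0.22 over the early genes, -0.81 over the erythroid regulators and -1.36 over the late genes, against 0.00 over all genes. Leaving out WT set 3, these medians were -0.26, -0.24 and -0.52. With only FA and WT in the fit, 24 genes passed the filter, 9 of them late, and the medians were -0.08, -0.63 and -0.55. In that fit 0 of 24 were called, against 235 of 14379 genes. The other genes passed with all 9 sets only with the help of the high FK sets.

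All 3 FA sets lay below all 3 WT sets for 4 of 35 genes, TAL1, TRIM10, XPO7 and TMCC2, against 12.4% of all genes. They lay above for 1 of 35, TSPAN33, against 12.5%. TRIM10 had 3, 0 and 1 counts in FA and 3, 4 and 21 in WT. FA set 1 and WT set 1 thus held equal TRIM10 counts and differed by scaling only. TAL1 differed by -0.60 log2 units (SE 1.05, 95% interval -2.99 to 1.78, edgeR adjusted p = 0.901) and XPO7 by -0.22 (SE 0.38, 95% interval -1.08 to 0.65, adjusted p = 0.901). TSPAN33 differed by 1.47 (SE 1.05, 95% interval -0.90 to 3.85, adjusted p = 0.688). ANK1 had 2 counts over all FA sets and 34 over WT, a WT to FA ratio of 17.6 with a 95% counting interval of 4.51 to 151. RHAG had 2 and 13, a ratio of 6.72 with an interval of 1.52 to 61.3. These intervals cover counting error only, and 30 of the 34 ANK1 counts came from WT set 3.

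FA and FK were compared to ask how the groups other than WT differ. The FA and FK results share their FK sets with the comparison of FK with WT, and the FA and WT results share their WT sets, so the 3 are not independent. edgeR with Benjamini-Hochberg adjustment called 0 of 33 genes with all 9 sets (adjusted p 0.115 to 0.871), against 0.0% of all genes. At an unadjusted p under 0.05 there were 32 of 33, and 3275 among all genes. Without FK set 3, 34 of 35 genes were lower in FA, against 18.1% of all genes, and LMO2 was not called (log2 difference 0.01, adjusted p = 0.984). DESeq2 on all 9 sets called 31 of 35 lower in FA, against 8.75%. All 3 FA sets lay below all 3 FK sets for 3 of 35 genes, KEL, TMCC2 and TMOD1, against 8.99%.

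Other genes of the pathway were read from lists. Over all genes, 3.04% were called higher in FK than in WT and 1.73% lower with all 9 sets. Without FK set 3 these shares were 18.7% and 16.2%. Of 17 globin symbols 5 were found and 2 tested, and 0 were called between FK and WT. Without FK set 3, 3 were tested and 2 were higher, HBB2 and HBZ. HBZ had 16 counts in each of FK sets 1 and 2, 0 over WT and 1 over FA. It passed the filter in that fit only through those FK sets. HBB2, a beta-type globin, stood at 607, 810.1 and 2355 CPM in WT, at 629.9, 663 and 266 in FA and at 6171, 14297 and 475 in FK. Its order of sets was that of the late genes, with WT set 3 highest in WT and FK set 3 below every WT set (log2 difference 2.47, SE 1.05, edgeR adjusted p = 0.174; 3.02 and 0.00764 without FK set 3). HBQ1 was the other globin tested with all 9 sets. It stood at 24.5, 30.2 and 35.04 CPM in WT, at 18.1, 11.7 and 7.91 in FA and at 26.4, 90.7 and 14.6 in FK. Its FK set 1 level lay inside the WT range, unlike that of HBB2 (log2 difference 0.55, SE 0.60, edgeR adjusted p = 0.591; 0.96 and 0.157 without FK set 3). Of 8 heme synthesis genes other than ALAS2, 0 were called, and 3 higher and 2 lower without FK set 3. FECH, which inserts iron into heme, stood at 9.57, 10.5 and 9.35 CPM in WT, at 11, 11.6 and 8.87 in FA and at 48.2, 137 and 11.1 in FK. ALAD, an early enzyme of the same pathway that hepatocytes also make, had its lowest levels in FK, at 361, 341 and 336 CPM in WT, 301, 196 and 234 in FA and 33.4, 70.9 and 167 in FK. Neither passed edgeR's test with all 9 sets (FECH log2 difference 2.74, SE 0.71, adjusted p = 0.0578; ALAD -1.94, SE 0.51, adjusted p = 0.0597).

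A list of other red cell genes also held FECH and HBQ1, which are counted in the lists above. Of its 20 genes tested, 2 were higher in FK with all 9 sets. Without FK set 3, 13 were higher, FECH among them, and 3 lower. The shares of all genes were 3.04% higher with all 9 sets, and 18.7% higher and 16.2% lower without FK set 3. TFRC, the transferrin receptor that brings iron into erythroblasts and other cells, was high in every FA and FK set. TFRC stood at 24.5, 19.0 and 28.1 CPM in WT, at 131, 242 and 109 in FA and at 189, 322 and 143 in FK. All FK and FA sets lay above all WT sets, and TFRC rose in FK (log2 difference 3.19, SE 0.42, edgeR adjusted p = 0.015). For FA against WT the difference was 2.75 (SE 0.41, adjusted p = 0.0551; 0.00927 without FK set 3). CA2, a carbonic anhydrase, rose in FK from 5.65, 5.40 and 12.6 CPM in WT to 592, 503 and 16.7 (log2 difference 5.55, SE 1.15, edgeR adjusted p = 0.0414), with 8.17, 18.9 and 9.15 in FA.

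Of 12 ligand and signalling genes tested, 0 were called with all 9 sets. Without FK set 3, 6 of 13 were higher, against 18.7% of all genes. KITLG, the ligand of KIT, stood at 0.208, 0.290 and 0.178 CPM in WT, at 0.0561, 0.243 and 0.151 in FA and at 8.93, 5.60 and 0.304 in FK (log2 difference 4.44, SE 1.06, edgeR adjusted p = 0.0504). Like KIT it was high in FK sets 1 and 2. Its FK set 3 level was above all 6 WT and FA sets only by scaling, since FK set 3 and WT set 2 each held 18 counts. PIM1, a kinase induced by cytokine signalling, stood at 12, 11.4 and 6.84 CPM in WT, at 15.6, 29.5 and 12.4 in FA and at 46.5, 67.5 and 17.8 in FK (log2 difference 2.12, SE 0.51, edgeR adjusted p = 0.0506). EPO, the hormone itself, was named after its values were seen. It had 37 and 112 counts in FK sets 1 and 2, 0 in FK set 3, 5 over WT and 6 over FA. EPO did not pass the filter on low counts with all 9 sets. Without FK set 3 it passed only through FK sets 1 and 2, and it is 1 of the 6 called higher. Of 14 tested partners of the early regulators, LMO4 and CBFB rose in FK, against 3.04% of all genes. Without FK set 3, 8 of 15 partners were higher and 2 lower, against 18.7% and 16.2%. HOXA9 is 1 of the 8, with 17 and 26 counts in FK sets 1 and 2 and 0 in all other sets. It passed the filter in that fit only through those FK sets. LMO4, which binds the same cofactor as LMO2, stood at 8.72, 8.44 and 8.96 CPM in WT, at 12.4, 11.7 and 12.3 in FA and at 15.6, 16 and 12 in FK (log2 difference 0.74, SE 0.17, edgeR adjusted p = 0.0471). CBFB, the partner of RUNX1, stood at 4.86, 5.73 and 8.60 CPM in WT, at 11.9, 12.5 and 13.9 in FA and at 17.1, 10.4 and 14.2 in FK (log2 difference 1.12, SE 0.27, edgeR adjusted p = 0.04997). For both of these genes all 3 FA sets also lay above all 3 WT sets, without a call (adjusted p 0.385 and 0.264).

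Markers of other cell types were read in the same sets, and their part in these results was not tested. Hepatocyte markers, 11 of 12 found, were abundant in all 9 sets and summed to 163653 to 283467 CPM, lowest in FK set 2. Markers of dividing cells, 12 of 12 found, summed to 17.2 to 24.3 CPM in WT and FA and to 364, 826 and 22.8 in FK sets 1, 2 and 3. Neutrophil and granule markers, 8 of 12 found, summed to 16 to 40.3 CPM in WT and FA and to 1197, 2059 and 26.9 in FK. Megakaryocyte and platelet markers, 8 of 11 found, summed to 44.4 to 84.7 CPM in WT and FA and to 192, 206 and 70.0 in FK. Mast cell and basophil markers, 5 of 7 found, summed to 3.51 to 6.12 CPM in WT and FA and to 24.9, 14.1 and 3.72 in FK, and CPA3 was at 0 counts in all 9 sets. In these last 4 lists FK sets 1 and 2 were above all other sets.

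Summed levels of endothelial, macrophage and lymphocyte markers did not share this pattern, though single genes did. Endothelial markers, 12 of 12 found, summed to 327 to 387 CPM in WT, 189 to 275 in FA and 408, 271 and 272 in FK. Macrophage markers, 7 of 10 found, summed to 415 to 565 CPM in WT, 213 to 313 in FA and 602, 468 and 318 in FK. Gene by gene, 4 of these 7 lay above all 6 WT and FA sets in FK set 1, and 4 in FK set 2. Among the 12 endothelial markers these numbers were 3 and 2, and among the 8 lymphocyte markers 0 and 0. The shares of all genes were 30.4% and 31.4%. Lymphocyte markers, 8 of 9 found, summed to 8.07 to 9.63 CPM in WT, 3.84 to 6.58 in FA and 1.77, 3.53 and 2.42 in FK, where no FK set reached the lowest FA set. Between FK and WT with all 9 sets, edgeR called 4 of 12 dividing cell markers and 4 of 7 neutrophil markers (S100A8, S100A9, S100A12 and CAMP) higher. Also higher were 1 of 6 megakaryocyte markers (GP9), 1 of 6 macrophage markers (CD163) and 1 of 11 hepatocyte markers (APOA1). Called lower were 2 of 8 lymphocyte markers (MS4A1 and CD5) and 1 of 12 endothelial markers (CLEC4G). Over all genes, 3.04% were called higher and 1.73% lower. A single call in a list is not read as a change of that cell type.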

How the data were processed

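The table holds estimated counts per gene for 36 libraries, whole numbers as deposited by the authors. Salmon 0.14.1 is named in the submitters' processing notes, but what it did, the build, the annotation and how values were rounded were not given in the sources used here. Counts of the 4 libraries of a set were summed. A single model of all 9 sets was fitted with edgeR 4.0.16 under R 4.3.3, using TMM scaling, filterByExpr on the groups and the quasi-likelihood F test. The 14939 genes left were adjusted together by Benjamini-Hochberg, and a gene was called at an adjusted p under 0.05. CPM values are after TMM scaling. The procedure was tested on simulated data. Alternatives used DESeq2 1.42.0, limma 3.58.1 (voom) and other filters and units of replication. Values in every set are given for called genes, the 3 highest of each role, the 2 of each role with FK set 3 farthest from WT, and EPOR, GATA1, KLF1 and KIT. Any gene singled out beyond this rule, such as KEL, MYB, ANK1, ICAM4 or EPO, was chosen after its values were seen. The genes, their roles and the lists were chosen with earlier results of these data known. Figures were drawn with matplotlib 3.10.9.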

Additional observations from a re-analysis of the deposited data

How the results depend on the processing

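How many of the 35 genes were called depended on FK set 3, on the choice of test and on the unit of replication. The cause was not tested. For FK against WT, 1 of 33 genes tested was called, and 30 of 35 under DESeq2. With no filter on low counts it was 3 of 35 (SPTB, TMCC2 and TSPAN33), against 636 of all 20104 genes. At a minimum of 1 CPM in 3 sets it was 2 of 24, against 619 of 12154. With only the 2 groups compared it was 0 of 33. With the 36 libraries as separate replicates, 24 of 25 were higher and 1 lower, against 7372 of 12775 called. Under limma-voom with the set as a random block it was 4 of 25, against 2448 of 12775. For FA against FK there were 0 of 33, with 31 of 35, 24 of 25 and 5 of 25 under DESeq2, 36 libraries and voom. All-gene calls in the last 2 fits were 6984 and 2169 of 12775. In both comparisons with FK, the voom share was near that of all genes called in either direction. By direction it was not. The 4 genes were all higher in FK than in WT, against 997 of 12775 called higher. The 5 genes were all lower in FA than in FK, against 802 of 12775 called lower. For FA against WT there were 0 of 33. Under 36 libraries there were 4 of 25 (LMO2, TRIM58, ALAS2 and EPB42, all lower in FA), against 4330 of 12775. Leaving out 1 set at a time gave 0 to 34, 0 to 34 and 0 to 0 genes, and the 34 came without FK set 3.

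Over all genes, calls between FK and WT numbered 712, with 2706 under DESeq2, 43 with 2 groups, 7372 with 36 libraries, 2448 with voom and 22 to 5396 leaving out 1 set. Between FA and WT there were 25, with 335, 235, 4330, 440 and 2 to 247. Between FA and FK there were 0, with 1778 under DESeq2, 6984 with 36 libraries, 2169 with voom and 0 to 5324 leaving out 1 set. No difference of the 35 genes changed from a call in one direction to the other. Mean levels kept within their spread between sets under RLE factors and under plain CPM.

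With the set number as a replicate block, 0 of the 33 genes tested were called in each comparison. Of all genes, 47, 3 and 0 were called for FK against WT, FA against WT and FA against FK. TSPAN33 then had an adjusted p of 0.133. Over all genes, deviations of sets that share a number were weakly correlated (correlations -0.125 to 0.128). With 3 sets per group this cannot show whether the numbers pair the sets.

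The pseudocount, an alternative added after the data were seen, moved the median log2 ratio of late genes in FK set 2 to the WT mean from 5.57 at 0.5 CPM to 6.51 at 0.1 and 4.98 at 1. The ratio of FK set 2 to FK set 1 moved by less than 0.05 in each role. Depth limits WT, FA and FK set 3, where up to 13 of the 35 genes had under 10 counts per set. A motif search of promoters was not run.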
